A study of Mus musculus with 4 samples.

Results

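The endoplasmic reticulum (ER) stress and folding genes are 38 genes that sense, fold, move or destroy proteins of the ER, or that respond when this fails. They were chosen by name from the pathway's sensors, its transcription factors, the Atf4 arm, the chaperones and the degradation machinery. All 38 matched a gene in the deposited tables, which hold 50600 genes, and all 38 are protein-coding. The RNA came from mouse regulatory T cells, a CD4 T cell type that restrains immune responses, taken as primary cells from the strain C57BL/6NJ. There were 4 libraries in 1 group, with no treatment, mutant or control group in the labels. The labels name the assay total RNA-seq, but they point to a library protocol for polyadenylated RNA and to a protocol for differentiating CD4 T cells. The names inside the files carry the word activated with a time of 0 h, the labels list 4 biosamples under 1 donor record, and sex and age are not given.

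Proteins that enter the ER are folded in its lumen by chaperones, glycan-binding proteins and disulfide isomerases, and those that fail are pulled back to the cytosol for destruction by the proteasome. When unfolded protein builds up, the membrane sensors PERK (Eif2ak3), IRE1 (Ern1) and ATF6 (Atf6) start the unfolded protein response: PERK slows translation and favours production of the ATF4 protein, IRE1 splices Xbp1 mRNA, and ATF6 is cut to release a transcription factor. Plasma cells are known for strong use of this machinery, because they secrete antibody. Counts per gene measure neither the splicing of Xbp1 nor the translation of Atf4 mRNA.

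The response is known to act through short promoter elements, and these are shown first because 10 of the genes, among chaperones, isomerases and degradation genes, hold the classical one in 1 of its forms. The ER stress response element (ERSE: CCAAT, any 9 bases, CCACG) is bound by NF-Y with ATF6 or XBP1, and ERSE-II (ATTGG, any 1 base, CCACG) holds the first of these boxes in reverse, close to the other. Both strands were searched from 250 bases before to 50 bases after each gene's start in RefSeq promoters (build GRCm38.p6), which were found for 32 of the 38 genes. More than 1 promoter was listed for 3 of these genes, and a match in any of them counted. ERSE was present in 8 of these 32 genes (25%), beside 37 of 27025 genes with a promoter in the table (0.137%). ERSE-II was present in 2 of 32 (6.25%), beside 12 of 27025 (0.0444%). The genes were picked as a known pathway, so the motif shares here and below describe them and test nothing. Each match is printed 5′ to 3′ with 5 flanking bases on each side, in the strand that reads as the motif, with the fixed bases of the motif in capitals.
Hspa5, chr2:34772020-34772048, plus strand: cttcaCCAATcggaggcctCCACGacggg
Hsp90b1, chr10:86705528-86705556, plus strand: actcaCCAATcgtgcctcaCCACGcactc
Hsp90b1, chr10:86705633-86705661, minus strand: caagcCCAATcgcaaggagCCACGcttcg
Canx, chr11:50325795-50325823, minus strand: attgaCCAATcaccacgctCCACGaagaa
Creld2, chr15:88819515-88819543, minus strand: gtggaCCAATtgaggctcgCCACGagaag
Derl3, chr10:75893237-75893265, minus strand: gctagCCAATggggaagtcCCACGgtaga
Dnajc3, chr14:118937822-118937850, plus strand: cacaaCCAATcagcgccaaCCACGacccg
Pdia6, chr12:17266486-17266514, plus strand: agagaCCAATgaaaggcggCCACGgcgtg
Syvn1, chr19:6046527-6046555, plus strand: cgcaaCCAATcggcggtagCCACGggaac
Dnajb11 (ERSE-II), chr16:22857847-22857867, plus strand: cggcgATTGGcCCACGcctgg
Herpud1 (ERSE-II), chr8:94386372-94386392, plus strand: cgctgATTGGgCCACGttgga

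The centres of the ERSE matches lay between 35 bases (Syvn1) and 203 bases (the farther match of Hsp90b1) upstream of the RefSeq start. The ERSE-II match of Dnajb11 was centred 12 bases downstream of its start. Of the 10 genes with ERSE or ERSE-II, 9 were expressed in these cells at 1 TPM or more in all 4 libraries (TPM is a transcript level scaled to gene length and library depth), and Derl3 was not. Another motif, the XBP1-binding element (UPRE, TGACGTGG), was in 0 of 32 promoters and in 193 of 27025 (0.714%). The matches describe letters in this window, and binding was not measured.

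The C/EBP-ATF response element (CARE, TGATGNAA), which ATF4 with a C/EBP partner is known to bind, was searched in the same way. It was in 5 of 32 genes (15.6%), beside 1219 of 27025 (4.51%). No match of it overlapped a match of another motif, and Herpud1 held both this element and ERSE-II. Of these genes, Trib3 and Herpud1 were expressed in all 4 libraries, and Asns, Atf3 and Chac1 were among the 4 that were not.
Asns, chr6:7693220-7693237, minus strand: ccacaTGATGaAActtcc
Atf3, chr1:191183431-191183448, plus strand: cttggTGATGcAAgtgcg
Chac1, chr2:119351044-119351061, minus strand: aggagTGATGcAAcggca
Herpud1, chr8:94386312-94386329, minus strand: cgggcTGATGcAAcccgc
Trib3, chr2:152344034-152344051, plus strand: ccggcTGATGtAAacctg

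**Figure D1:**
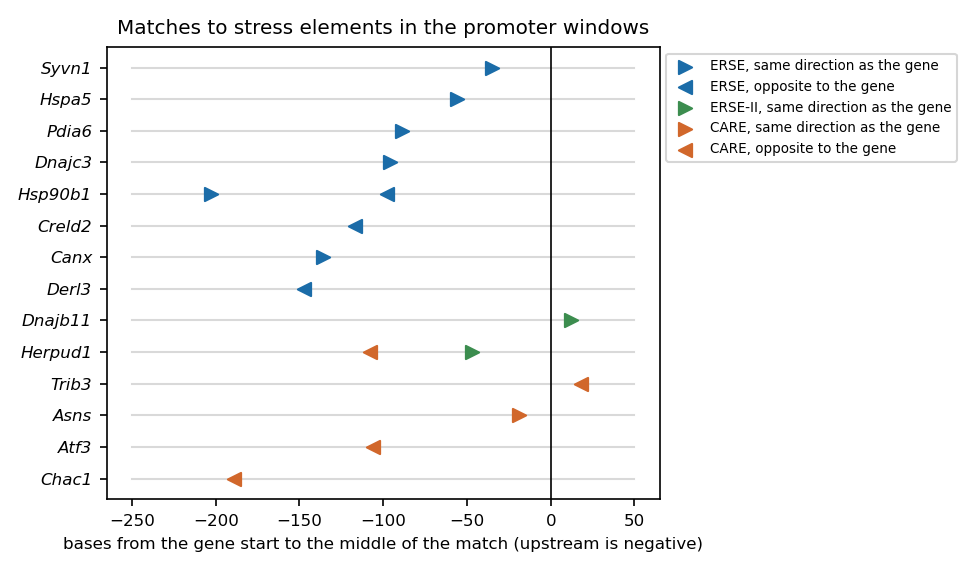
Positions of motif matches (x axis, bases from the annotated start to the middle of the match, negative values upstream) in the promoters of the 14 genes that held any of the motifs, 1 row per gene, with arrowheads giving the direction of the motif. The ERSE matches all lie upstream of the start, and the ERSE-II match of Dnajb11 lies 12 bases downstream.

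The 250 bases before the RefSeq start are printed for 3 genes that carry such an element and differ in level. These are Hspa5, among the higher genes, and Derl3 and Asns, which stayed under 1 TPM. The deposited gene spans start farther upstream for Hspa5 and Asns, so by those spans both elements lie inside the gene. The CARE match of Atf3 also lies inside its deposited span (chromosome 1, 191170296 to 191218039, minus strand). Capitals mark the fixed bases of ERSE (Hspa5 and Derl3) or CARE (Asns), in the strand of the gene, so the Derl3 element reads as its reverse complement.
Hspa5, chr2:34771840-34772089, plus strand: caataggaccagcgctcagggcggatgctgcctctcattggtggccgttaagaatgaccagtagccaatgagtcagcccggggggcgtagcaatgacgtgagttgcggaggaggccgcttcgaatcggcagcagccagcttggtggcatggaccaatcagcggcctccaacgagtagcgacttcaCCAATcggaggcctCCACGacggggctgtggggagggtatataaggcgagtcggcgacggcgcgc
Derl3, chr10:75893148-75893397, plus strand: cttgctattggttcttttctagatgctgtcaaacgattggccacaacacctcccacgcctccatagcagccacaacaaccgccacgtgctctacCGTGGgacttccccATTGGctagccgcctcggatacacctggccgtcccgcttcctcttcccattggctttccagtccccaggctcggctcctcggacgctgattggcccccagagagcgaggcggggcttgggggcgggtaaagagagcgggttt
Asns, chr6:7693210-7693459, minus strand: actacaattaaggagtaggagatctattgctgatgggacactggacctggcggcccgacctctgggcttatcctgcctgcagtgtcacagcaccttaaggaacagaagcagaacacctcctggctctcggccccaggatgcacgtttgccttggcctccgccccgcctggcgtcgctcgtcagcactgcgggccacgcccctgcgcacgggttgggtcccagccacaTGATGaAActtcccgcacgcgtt

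Of the 38 genes, 34 were expressed at 1 TPM or more in every library, where 23.1% of all genes and 45.7% of protein-coding genes were. Levels are given as TPM computed from each fragment count and the exon length of the gene, so that genes can be compared per length. The 38 genes together made up 0.304%, 0.315%, 0.296% and 0.306% of all TPM in replicates 1 to 4 (0.305% ± 0.0076, SD, n = 4). Their median level was 61.9, 57.3, 58.0 and 58.8 TPM, while the median of all protein-coding genes was 0.387 ± 0.0236 TPM (SD, n = 4). Means of 13 genes were at 100 TPM or more, 14 lay between 20 and 100 TPM, and 7 expressed genes were below 20 TPM. The 34 expressed genes had a median percentile of 76.6 among the 11670 genes expressed by the same rule. The genes were picked as a known pathway with earlier results in view, so this share describes them and tests nothing. In bulk RNA, fewer cells expressing a gene and less of its RNA per cell cannot be told apart.

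**Figure D2:**
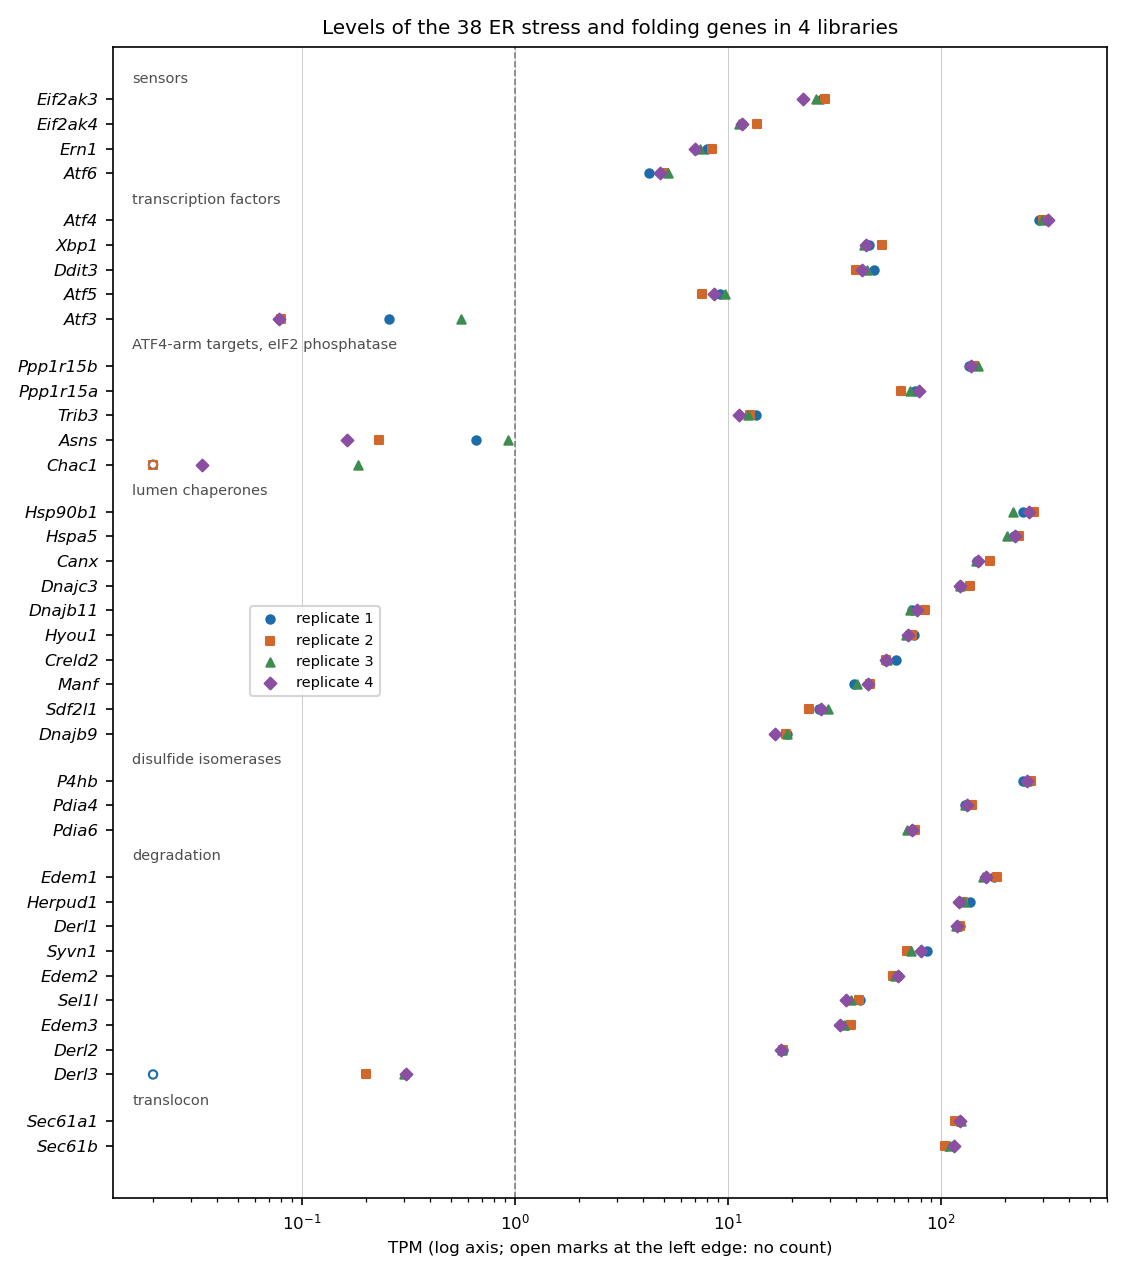
TPM of each of the 38 genes in 4 libraries (x axis, log scale), grouped by role and ordered by mean within each role; the dashed line marks 1 TPM and open marks stand for no count. The sensors Ern1 and Atf6 sit below 10 TPM, Atf4, Hsp90b1, Hspa5 and P4hb above 200, and Atf3, Asns, Chac1 and Derl3 below 1.

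The sensors were among the lower genes, with a group median of 9.84 ± 0.793 TPM (SD, n = 4), and all 4 were expressed. Eif2ak4, which encodes GCN2, the kinase that answers amino acid shortage through the same target eIF2, had 11.6, 13.6, 11.2 and 11.6 TPM. Eif2ak3, which encodes PERK, had 27.5, 28.5, 25.9 and 22.5 TPM. Every library held less Eif2ak4 than Eif2ak3, with a mean log2 ratio of -1.11 ± 0.14 (SD, n = 4), or 2.16-fold lower. Atf6 had 4.27, 4.98, 5.24 and 4.80 TPM. Ern1 had 7.98, 8.37, 7.37 and 7.0 TPM. Atf6 was the lowest expressed member of the whole set, and its 4 values lay below all 4 of Ern1 (log2 ratio -0.66 ± 0.19, SD, n = 4). These and all other ratios between genes were tested by flipping their signs over libraries (exact, two-sided), for 22 ratios. Each of the 22 kept 1 sign in 4 of 4 libraries and had p = 0.125, the smallest that this exact test can give with 4 libraries, which is also the Benjamini-Hochberg adjusted value, so no ratio could pass 0.05.

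Among the transcription factors, Atf4 was far above the others. Xbp1, the factor made active by IRE1 splicing (chromosome 11, 5520659 to 5525893, plus strand, mm10), had 46.1, 52.6, 43.5 and 44.2 TPM. This was 9.49-fold above its fellow factor Atf6 (log2 ratio 3.25 ± 0.18, SD, n = 4). Atf4, the activator of amino acid and stress genes (chromosome 15, 80255184 to 80257540, plus strand), had 286, 302, 298 and 318 TPM and was the highest of the 38 genes. It ranked 483 of the 11670 expressed genes. Atf5, a related factor also controlled at translation, had 9.19, 7.56, 9.70 and 8.54 TPM. Atf4 was thus 34.2-fold above Atf5 (log2 ratio 5.09 ± 0.19, SD, n = 4), with no overlap between their values.

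Ddit3, which encodes the pro-apoptotic factor CHOP and is a known ATF4 target, had 48.5, 40.004, 45.0 and 42.5 TPM. Atf4 stood 2.78 ± 0.17 above it on the log2 scale (SD, n = 4). Set against the longest annotated transcript instead of all exons, that log2 ratio was 1.73. Trib3, a pseudokinase induced by ATF4 and CHOP, had 13.5, 12.7, 12.3 and 11.2 TPM. Ddit3 was higher than Trib3 in every library (log2 ratio 1.81 ± 0.11, SD, n = 4; 2.56 by the longest transcript). Ppp1r15a (GADD34), the stress-induced partner of the phosphatase that reverses eIF2 phosphorylation, had 75.7, 65.1, 71.1 and 78.9 TPM. Ppp1r15b (CReP), the constitutive partner, had 134, 143, 149.6 and 137 TPM. The induced form was thus below the constitutive form in all 4 libraries (log2 ratio -0.96 ± 0.17, SD, n = 4).

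The 4 genes that were not expressed by this rule were Atf3, Asns, Chac1 and Derl3, each known to rise under stress or in secretory cells. Asns, the asparagine synthetase, had 13, 11, 17 and 8 fragments, or 0.654, 0.229, 0.931 and 0.163 TPM. The exact Poisson 95% intervals, which cover counting error only, were 0.348 to 1.12, 0.115 to 0.411, 0.542 to 1.49 and 0.0705 to 0.322 TPM. Replicates 1 and 3 were the higher pair, and the interval of replicate 3 did not overlap those of replicates 2 and 4, nor that of replicate 1 the interval of replicate 4. Atf3, a stress-induced repressor of the same family, had 4, 3, 8 and 3 fragments, or 0.256, 0.0795, 0.556 and 0.0777 TPM. Its values were again higher in replicates 1 and 3, which are the shallower libraries with 25573253 and 23000465 fragments, against 62090744 and 61943411 in replicates 2 and 4. Il2ra, the interleukin 2 receptor chain of regulatory and activated T cells, had 6.22, 3.63, 9.13 and 3.11 TPM, with the same pair of libraries high. Among other regulatory T cell markers, Ikzf2 had this order narrowly, at 1.411, 1.395, 1.497 and 1.057 TPM. Ctla4, at 7.27, 9.13, 7.72 and 6.97 TPM, and Foxp3, at 8.08, 8.18, 9.46 and 7.39 TPM, did not. Izumo1r and Tnfrsf18 were lowest in replicate 1, at 158 and 102 TPM. The part of depth or of activation in the values of Asns, Atf3 and Il2ra was not tested. The fit without a filter on low counts was read for the low genes after the data were seen. Against genes of like abundance in edgeR, Asns had an unadjusted p of 0.0339 and an adjusted p of 0.971. Against counting error alone (Poisson deviance), its adjusted p was 0.000114. Atf3 had an unadjusted p of 0.181 in edgeR and an adjusted p of 0.0132 against counting error (Poisson deviance).

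Chac1, which degrades glutathione and is induced through ATF4, had 0, 0, 2 and 1 fragments. A count of 0 was given a limit of 3 fragments, a one-sided bound that is tighter than the two-sided intervals above, and this was 0.252 TPM in replicate 1 and 0.105 TPM in replicate 2. Derl3, the Derlin form known from secretory cells, had 0, 7, 4 and 11 fragments, or by the same bound at most 0.207 TPM in replicate 1, and 0.20, 0.301 and 0.308 TPM in the others. Differences of either gene between libraries were not detectable at this depth. Set beside its factor, Atf4 stood 9.21 ± 0.99 above Asns on the log2 scale (SD, n = 4) with 0.1 TPM added to each value, and 7.69 with 1 TPM added.

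The chaperones and co-chaperones of the lumen were all expressed, 10 of 10, with a group median of 73.9 ± 3.75 TPM (SD, n = 4). Hspa5, which encodes BiP, the main Hsp70 of the lumen (chromosome 2, 34771970 to 34777547, plus strand), had 219, 231, 203 and 222 TPM. Hsp90b1, which encodes GRP94, the Hsp90 of the lumen (chromosome 10, 86690209 to 86705509, minus strand), had 242, 273, 218 and 259 TPM. Hspa5 was lower than Hsp90b1 within each library, but by little (log2 ratio -0.18 ± 0.06, SD, n = 4), and the ranges of the genes overlapped across libraries. Both were below their cytosolic relatives. Hspa5 was 4.14-fold below Hspa8, which had 916, 825, 806 and 1094 TPM (log2 ratio -2.05 ± 0.19, SD, n = 4). Hsp90b1 was 7.60-fold below Hsp90ab1, which had 1839.7, 1706, 1704 and 2328 TPM (log2 ratio -2.93 ± 0.22, SD, n = 4). The share of 50-base words found in other genes' transcripts was 0% for Hspa5, 15.5% for Hsp90b1 and 63.6% for Hspa8, and fragments that align to several places were not counted, so the levels of Hsp90b1 and Hspa8 are uncertain.

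Canx, the membrane lectin calnexin that holds glycoproteins during folding, had 148, 169, 146 and 149 TPM. Its soluble relative Calr, calreticulin, had 423, 461, 363 and 391 TPM. Canx was 2.67-fold below Calr (log2 ratio -1.42 ± 0.09, SD, n = 4), with no overlap. The Hsp40 co-chaperones of BiP differed in level. Dnajb11 had 73.2, 84.3, 71.2 and 76.7 TPM, Dnajb9 had 18.9, 18.7, 18.8 and 16.6 TPM, and Dnajc3, also known as an inhibitor of eIF2 kinases, had 122, 137, 123 and 123 TPM. Dnajb11 was therefore 4.16-fold above Dnajb9 and 1.65-fold below Dnajc3, and the ranges of these genes were apart. The log2 ratios were 2.06 and -0.73, and by the longest transcript 2.37 and -0.37. Of the other lumen genes, Hyou1, an exchange factor for BiP, averaged 71.4 ± 2.84 TPM, and Creld2, a stress-induced protein of the ER, 56.8 ± 2.92 TPM (SD, n = 4). Manf, a secreted stress factor, averaged 42.7 ± 3.63 TPM and Sdf2l1, a BiP cofactor, 26.8 ± 2.18 TPM (SD, n = 4).

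The disulfide isomerases had the highest median of the role groups, 133 ± 4.85 TPM (SD, n = 4). P4hb, the classical protein disulfide isomerase, had 241, 265, 251 and 254 TPM. Pdia4 had 129, 139.7, 129.6 and 132 TPM. Pdia6, which also attenuates IRE1 signalling, had 74.0, 75.1, 69.0 and 72.8 TPM. The order P4hb, Pdia4, Pdia6 held in every library without overlap, with P4hb 1.80 ± 0.07 and Pdia4 0.87 ± 0.05 above Pdia6 on the log2 scale (SD, n = 4). Both values depended on the length used: by the longest transcript they were 1.01 and 0.08, so the step between Pdia4 and Pdia6 was close to 0 on that scale.

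Of the 9 degradation genes, 8 were expressed, with a group median of 61.2 ± 1.60 TPM (SD, n = 4), or 35.1 TPM as a back-transformed mean of logs, which weighs the low Derl3 more. Sel1l, the scaffold of the main ubiquitin ligase of ER-associated degradation, had 41.4, 41.2, 37.7 and 35.8 TPM. Syvn1, its catalytic partner Hrd1 (chromosome 19, 6046576 to 6053712, plus strand), had 86.0, 69.1, 72.4 and 80.3 TPM. Sel1l was 1.96-fold below Syvn1 (log2 ratio -0.97 ± 0.18, SD, n = 4), with no overlap. The EDEM genes, which act on mannose of misfolded glycoproteins, came in the order Edem1, Edem2, Edem3. Edem1 had 176, 183, 157 and 162 TPM. Edem2 had 62.7, 59.4, 60.4 and 62.4 TPM, and Edem3 had 36.1, 37.9, 34.8 and 33.6 TPM. Edem1 was 2.77-fold above Edem2 and 4.75-fold above Edem3 (log2 ratios 1.47 ± 0.12 and 2.25 ± 0.05, SD, n = 4). By the longest transcript these log2 ratios were 0.96 and 2.32. These 3 genes did not overlap in any pair.

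The Derlins, membrane proteins of the retrotranslocation channel, differed widely in level. Derl1 had 122, 123, 117 and 118 TPM. Derl2 had 18.1, 18.2, 17.9 and 17.7 TPM, the smallest relative spread of any of the 34 expressed genes (coefficient of variation 1.30%). Derl1 stood 2.73 ± 0.02 above Derl2 on the log2 scale (SD, n = 4), or 1.84 by the longest transcript. Derl2 stood 6.09 ± 0.97 above Derl3 with 0.1 TPM added (SD, n = 4) and 3.99 with 1 TPM added, and the value in replicate 1 was set by the amount added, since Derl3 had no fragment there. Herpud1, an ER membrane protein that recruits the ligase and is induced by stress, had 137, 127, 127 and 121 TPM. Of the translocon, Sec61b had 106, 104, 110.2 and 114 TPM and the pore subunit Sec61a1 had 120.0, 116, 124 and 123 TPM. Sec61b was slightly lower in each library (log2 ratio -0.15 ± 0.03, SD, n = 4), but 26.0% of its 50-base words occur in other genes, so its level is uncertain.

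**Figure D3:**
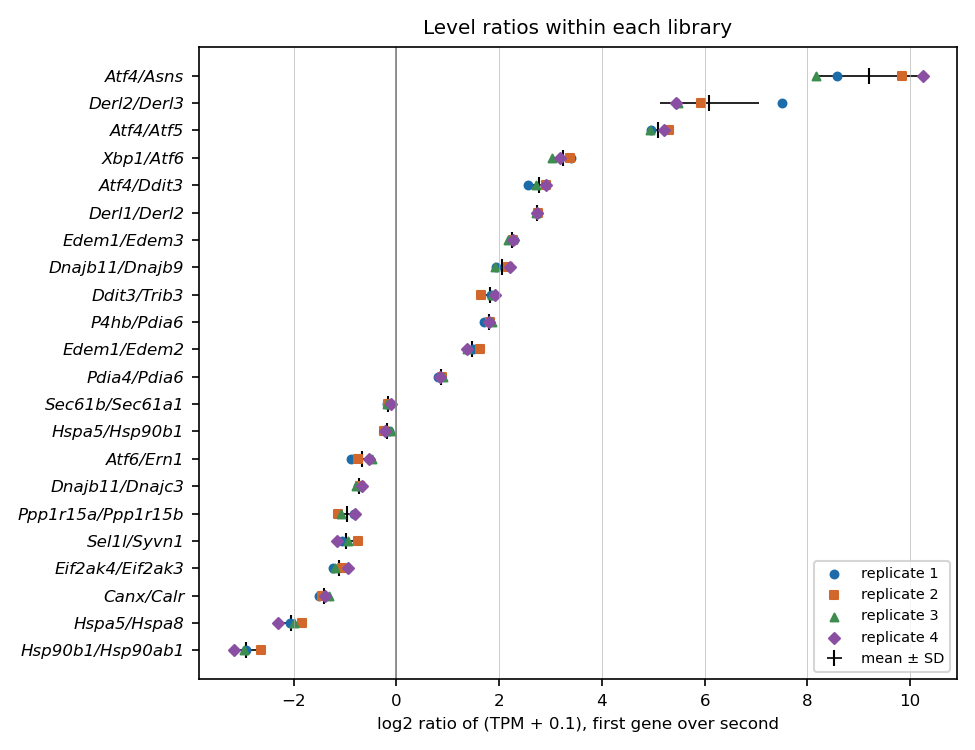
Log2 ratio of TPM + 0.1 between pairs of genes (x axis), 1 point per library, for the 22 ratios, with the mean and SD in black. All 4 points of each pair lie on the same side of 0, and the widest scatter is in the pairs with the low genes Asns and Derl3.

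The rest of the pathway, 98 listed genes outside the 38, had levels of the same order: the median was 59.0 ± 2.04 TPM for the 38 genes and 60.2 ± 1.93 TPM for the 98 (SD, n = 4). Of these 98, 83 were expressed in every library. Among other sensors, proteases and ER-bound factors, 11 of 14 were expressed, and Tmbim6, an ER membrane protein that limits cell death, was highest at 476 ± 13.0 TPM (SD, n = 4). Among other ATF4 targets, 14 of 20 were expressed. Ddit4, an inhibitor of mTORC1 that other stresses also induce, averaged 1071 ± 91.6 TPM, the asparaginyl-tRNA synthetase Nars 165 ± 3.16 TPM and the serine hydroxymethyltransferase Shmt2 131 ± 15.0 TPM (SD, n = 4), while the secreted stress factors Gdf15 and Fgf21 had 0 fragments in all 4 libraries. The ATF4 targets therefore ran from no fragment to more than Atf4 itself.

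Among other folding genes 17 of 22 were expressed, led by Calr, the glucosidase subunit Ganab at 321 ± 8.88 TPM and the isomerase Pdia3 at 309 ± 32.2 TPM (SD, n = 4). Pdia2, a pancreatic isomerase, and Clgn, a testis homologue of calnexin, had 0 fragments, but 92.4% of the exon length of Pdia2 overlaps another gene on its strand, where fragments may not be assigned. Among other degradation genes 19 of 20 were expressed, led by the lectin Os9 at 264 ± 8.64 TPM (SD, n = 4), and all 22 other translocation genes were, led by the oligosaccharyltransferase subunit Ddost at 206 ± 5.40 TPM (SD, n = 4). The lowest of that last list were Sec61g at 10.3 ± 0.803 TPM and Sec61a2 at 7.80 ± 0.907 TPM (SD, n = 4), and Sec61a2 is another form of the pore subunit.

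The labels give 1 group, so the remaining question was how much the 38 genes varied between libraries. Replicates came from separate biosamples of 1 donor record, so the p-values speak only of spread among these libraries and may reflect technical differences. In an edgeR fit of all genes with only a mean, each gene's deviance was set against the trend for genes of like abundance (3 degrees of freedom), and 142 of 12554 genes tested were called variable at a Benjamini-Hochberg adjusted p of at most 0.05 (1.13%). Of the 38 genes, 34 could be tested and 0 were called. Syvn1 came nearest, with an unadjusted p of 0.0327 and an adjusted p of 0.78,, and 1 of the 34 was under 0.05 before adjustment. Over all genes tested, 657 were under 0.05 before adjustment. With the dispersion trend of DESeq2 in place of that of edgeR the count was also 0. The 4 genes left out of the test were the low ones, which could not be judged here.

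Against the error of counting alone, which is smaller than the spread between replicates, 25 of the 34 genes varied beyond what a Poisson count allows, where 65.5% of all genes tested did. Without replicate 2, a deeper library, the count was 16 of 34, and the share of all genes tested was 42.7%. The genes within counting error were Trib3, Derl1, Derl2, Creld2, Dnajb9, Pdia4, Pdia6, Atf6 and Atf5. The coefficient of variation over libraries ran from 1.30% (Derl2) to 10.5% (Atf5) in the 34 genes, with a median of 6.46%, and the median over all genes tested was 7.84%.

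**Figure D4:**
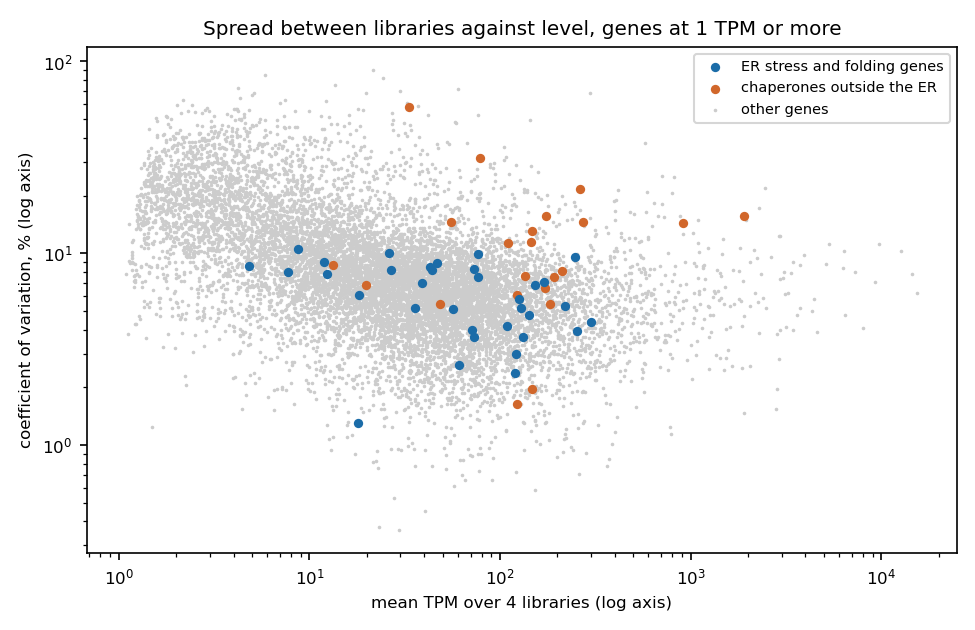
Coefficient of variation of TPM over 4 libraries (y axis) against mean TPM (x axis) for ER genes, chaperones outside the ER and other genes expressed at 1 TPM or more; both axes are logarithmic. The 34 ER genes lie between 1.30% and 10.5%, while several chaperones outside the ER lie above them, up to 57.7% for Hspa1b.

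A list of chaperones and partners outside the ER was read in the same fit. Most act in the cytosol, where heat shock factor 1 induces several, but the list also holds the mitochondrial Hspd1, Hspe1 and Hspa9 and the factor itself, Hsf1. Of 23 tested, 6 were called variable: Hspa1a, Hspa1b, Hsph1, Stip1, Ahsa1 and Dnajb1. Hspa1b, an inducible Hsp70, had 45.0, 37.0, 5.08 and 45.6 TPM, so replicate 3 stood low (adjusted p = 3.6e-55, edgeR). Its near-identical copy Hspa1a shares most sequence, and both levels are uncertain. Hsph1, an Hsp110 exchange factor, had 85.1, 59.2, 59.7 and 111 TPM (adjusted p = 3.59e-10, edgeR). The co-chaperone Stip1 had 271, 219.8, 218 and 339 TPM (adjusted p = 0.000368, edgeR), again highest in replicate 4. With 1 replicate left out fewer were called: 4 without replicate 1, 3 without replicate 2, 3 without replicate 3 and 2 without replicate 4. Calls over all genes tested also fell, from 142 to 64, 85, 84 and 60 in the same order. With the dispersion trend of DESeq2, 9 of 23 were called. In all of these fits 0 of the ER genes were called, and Hsph1 was called in each. A test of the difference between the sets was not made. The 31 proteasome subunits, which receive the proteins removed from the ER, were all expressed (median 107 ± 2.29 TPM, SD, n = 4), and edgeR called 0 of 31 variable, with 0 of 31 under 0.05 before adjustment. Of the 98 other pathway genes 84 could be tested, of which 0 were called and 4 were under 0.05 before adjustment (edgeR).

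Deviations were taken on log2(CPM + 1), scaled by TMM, where CPM is a count scaled to library depth but not to gene length. On this scale, no ER gene lay more than 0.2 from its own mean in any library, and the farthest was Atf5 at 0.19. Of the 23 genes of the list outside the ER 12 did, and of all 12554 tested genes 2886 did. Without the 3 mitochondrial genes and Hsf1, a choice made after the data were seen, 11 of 19 did, and the 6 called genes were all among these 19. The added 1 shrinks the deviations of genes with low CPM, such as Atf5 at 4.25 to 5.61 CPM. Whether all ER genes stay within 0.2 without it was not tested. The counts over 0.2 were not matched for level, and the 34 ER genes had a median percentile of 76.6 among expressed genes. The median deviation of the 34 ER genes was 0.01, 0.01, -0.02 and 0.00 in replicates 1 to 4. Over all 12554 tested genes the median deviation was 0.0004, 0.0043, -0.0003 and -0.0012. For the list outside the ER it was 0.01, -0.04, -0.07 and 0.21, with replicate 4 high. Above their own mean were 18, 20, 12 and 18 of the 34 ER genes, so replicate 3 had the fewest, as it had the lowest share of TPM. This count was not taken over all tested genes. ER genes had their highest value in replicate 1 in 9 cases, replicate 2 in 12, replicate 3 in 5 and replicate 4 in 8, where the shares of all tested genes were 26.0%, 29.5%, 24.0% and 20.5%.

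**Figure D5:**
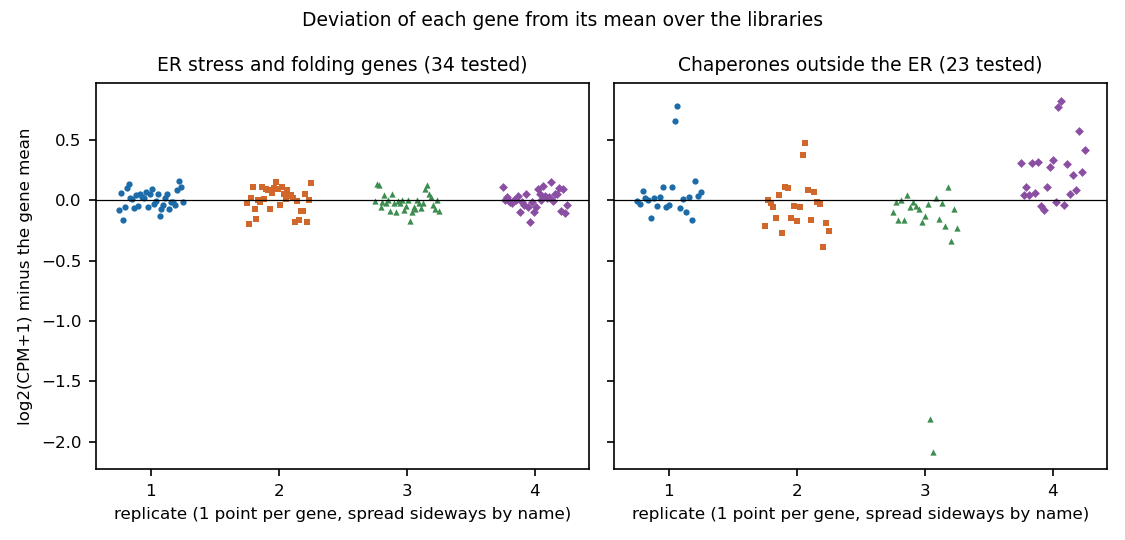
Deviation of each tested gene from its mean over 4 libraries (y axis, log2 CPM + 1, TMM-scaled), by library (x axis), for the 34 ER genes, left, and the 23 listed chaperones and partners outside the ER, right. All ER genes stay within 0.2 of 0, whereas Hspa1b in replicate 3 lies 2.08 below its mean.

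The libraries held 23000465 to 62090744 counted fragments, a 2.70-fold range. The labelled cell type's markers were present: Foxp3, the lineage factor, at 8.28 ± 0.867 TPM and Cd4 at 1067 ± 31.4 TPM (SD, n = 4), with Tnfrsf18 at 107 and Izumo1r at 167 TPM, though Ikzf2 was at 1.34 TPM, Il2ra at 5.52 TPM and the naive T cell marker Ccr7 at 1083 TPM. Markers of B cells moved between libraries, 6 of 6 called variable, with a median of 9.67, 6.10, 5.88 and 2.78 TPM in replicates 1 to 4, highest in replicate 1 and lowest in replicate 4. The median deviation of the 34 tested ER genes was 0.01 in replicate 1 and 0.00 in replicate 4, which does not describe single genes. The part of B cells in the levels of the ER genes was not tested. Of 8 plasma cell markers, 4 were expressed and edgeR called 0 of the 4 tested variable, with 0 of 4 under 0.05 before adjustment. The factors Pou2af1, Irf4 and Prdm1, which other lymphocytes also express, averaged 22.4, 11.04 and 5.74 TPM, and the ER proteins Fkbp11 and Mzb1 averaged 2.25 and 1.19 TPM. Jchain and Sdc1 averaged 0.366 and 0.114 TPM, and Tnfrsf17 had 0 fragments in all 4 libraries.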

How the data were processed

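Raw fragment counts per gene and exon lengths were used as the authors deposited them. Per the file headers, featureCounts 1.4.6-p4 counted paired fragments of STAR alignments (mm10) on exons of the GENCODE M13 annotation, with the reverse-stranded setting 2; fragments with several alignments were not counted. Symbols came from GENCODE M21, which matched 50376 of 50600 genes (99.6%). TPM was computed here from deposited counts and the exon length in base pairs (the other deposited column used), and 1 TPM in all 4 libraries was called expressed.

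Variable genes were tested on counts with edgeR 4.0.16 under R 4.3.3, after filterByExpr and TMM scaling, by an intercept-only fit, each gene's deviance against the trended dispersion being compared with chi-square, and adjusted by Benjamini-Hochberg over all 12554 genes. Counting error used a Poisson deviance in the same way. The procedure was tested on simulated data. Ratios used log2(TPM + 0.1) within libraries and an exact two-sided sign-flip test. Coordinates are 1-based; gene coordinates are those of the deposited tables and promoters those of RefSeq. Shared sequence was the share of 50-base words, every 10 bases, found in another gene's transcripts. Alternatives were other scalings, filters, thresholds, added amounts and lengths, DESeq2 1.42.0 for the trend and size factors, and leaving out each library.

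Members and lists were chosen with earlier results of these data known. Named genes are all 38 members, the 3 highest and 2 lowest of each other list, the genes of the ratios, markers of T, regulatory T and plasma cells, and pathway genes called variable; other names were chosen after their values were seen. Intervals and floors cover counting error only.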

Additional observations from a re-analysis of the deposited data

Results flagged for a closer look

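Of 121 values examined over the 4 libraries, 7 had 1 library standing far from the other three, where chance alone flags about 1 in 20 groups. Canx had 169 TPM in replicate 2, above 148, 146 and 149 TPM in replicates 1, 3 and 4. Dnajc3 was likewise high in replicate 2, at 137 TPM against 122 to 123 TPM in the others. Dnajb9 was low in replicate 4, at 16.6 TPM against 18.7 to 18.9 TPM. Creld2 was high in replicate 1, at 61.2 TPM against 55.2 to 55.7 TPM. The log2 ratio of Edem1 to Edem3 was 2.17 in replicate 3 and 2.27 to 2.28 in the others. Creb3l4, an ER-bound factor of the CREB3 family, had 0.0892 TPM in replicate 3, which is 1 fragment, and 0 in the others. Trac, the T cell receptor alpha constant gene, had 3229.9 TPM in replicate 1, below 3483 to 3516 TPM in the others. Creb3l4 was too low to test; of the other genes named here, 0 were called variable at an adjusted p of at most 0.05 in edgeR.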

How the results depend on the processing

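The count of 34 expressed genes was 34 at 0.5 TPM, at 1 CPM and without any replicate in turn, and 33 at 5 TPM. The count of 0 variable genes held under each of 9 alternatives. The count beyond counting error, 25, was 26 with DESeq2 size factors or library totals, 27 without a filter, and 16 to 24 with a replicate left out, lowest without replicate 2. The median level of the 38 genes, 59.0 TPM, was 32.5 TPM as a back-transformed mean of logs, 64.0 TPM over protein-coding genes alone, and 58.0 to 59.6 TPM with a replicate left out. Of the 22 ratios 0 reversed under any alternative tried. Without a length correction 21 kept 1 sign in every library, and Sel1l to Syvn1 did not: its log2 ratio was -0.13, and in replicate 2 Sel1l was the higher (99.4 CPM against 93.1 CPM); with nothing added, Derl2 to Derl3 gave no value. With 3 libraries the smallest exact sign-flip p is 0.25. As back-transformed means of logs the transcription factors were at 17.4 TPM in place of a median of 43.0, the Atf4-arm targets at 6.20 in place of 12.4 and the degradation genes at 35.1 in place of 61.2 TPM. A mean of logs weighs low genes more. These groups hold Atf3 (mean 0.242 TPM), Asns and Chac1 (0.495 and 0.0543 TPM) and Derl3 (0.202 TPM). Calls over all genes ranged from 60 to 142. On simulated counts the test for variable genes missed most of the smallest changes placed in 1 library, so a count of 0 does not show equal levels. Depth limits the low genes: Chac1 had 0 to 2 fragments a library and Derl3 0 to 11. No paired analysis was possible because the samples form 1 group.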
